A study of Mus musculus with 2 samples.

Results

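Potassium channel genes were described here across the cell classes of 2 single-cell RNA libraries from mouse bone, 1 chase and 1 pulse. The set is every feature whose symbol starts with Kcn, then lower-case letters, then a digit, which gave 98 of the 32286 features; it includes pore-forming subunits, their accessory subunits and a few noncoding transcripts that carry a channel's symbol. The 46 with a total of 50 UMIs or more are described, and the other 52 are counted only, 15 of them with 0 UMIs and 37 with 1 to 49. A UMI marks 1 captured mRNA molecule at its 3 prime end, so a level here needs no division by gene length. Just outside the limit of 50 lay Kcnc2 with 37 UMIs, Kcnj13 with 35 and Kcna4 with 32, and just inside it lay Kcna3 and Kcne2 with 55 each and Kcnip4 with 56.

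Both libraries came from male Adipoq-CreERT2;Ai9 mice, in which a tamoxifen-inducible Cre driven by the Adipoq promoter switches on tdTomato from a reporter allele, so that cells with an active Adipoq promoter at dosing, and their descendants, are marked. All mice received tamoxifen on 3 consecutive days at 8 weeks of age; chase mice were harvested 4 weeks later and pulse mice after 24 h, so the groups also differ in age. Cells with bright tdTomato were sorted from digested femur and tibia, 0.29% of the total in the chase sample and 0.01% in the pulse sample. The series used 4 mice, and their number per library is not stated. No library without tamoxifen or without Cre is part of the series, and each group is 1 library, so a difference between chase and pulse has no replicate check and no test was run. Intervals are exact 95% intervals on the counts, and they cover counting error only.

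Potassium channels let potassium leave or enter a cell along its gradient and so set the membrane potential, cell volume and the driving force for calcium entry. Leak channels with tandem pores and inward rectifiers hold the resting potential, voltage-gated and calcium-activated channels open on depolarisation or calcium signals, and accessory subunits change gating and trafficking without forming a pore. In bone, conductances of this kind have been studied in osteoblasts as parts of mechanical and hormonal responses, and in macrophages and lymphocytes as regulators of calcium entry and of volume.

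Cells were assigned to classes by gates on summed marker genes, with no potassium channel gene among the markers, and a class name stands for cells that resemble that type by those markers. CAR stands for CXCL12-abundant reticular stromal cells. The adipogenic CAR class was gated on Adipoq, Lepr, Cxcl12 and similar genes. The osteogenic CAR class was gated on Alpl, Wif1, Spp1 and similar genes, without Cxcl12. The gates gave 466 osteogenic CAR cells in the chase library and 749 in the pulse library, 3713 and 3679 adipogenic CAR cells, and 306 and 425 osteoblasts. Although the sort and the labels are for mesenchymal cells, blood and endothelial cells were also present, with 1403 and 1457 monocytes or macrophages and 305 and 347 endothelial cells. Of 20 gated classes, the 10 with at least 50 cells in both libraries are compared here. The deposited barcodes held 82939659 UMIs in 10046 chase barcodes and 89009901 UMIs in 10608 pulse barcodes, and 52 barcode sequences occurred in both. Levels are UMIs of a gene scaled to 1000000 UMIs of its class (CPM), and where a pair of values is given for a class, the chase library's value precedes the pulse library's.

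The promoters of Kcnk2, Kcnma1 and Kcnn4 are shown because class differences described below turn on these genes: Kcnk2 in osteogenic CAR cells, Kcnma1 in osteoblasts and Kcnn4 in blood cells. Each is the RefSeq window of 250 bases before to 50 bases after a transcription start in the build GRCm38.p6, read 5′ to 3′ on the gene's strand. Kcnk2 is at chr1:189402224-189402523 on the minus strand, which is 1 of 4 windows listed for the gene, Kcnma1 at chr14:24004156-24004455 on the minus strand, and Kcnn4 at chr7:24370013-24370312 on the plus strand. The Kcnma1 window lies inside the gene position given below, and not at the 5′ end of that position. Capitals mark the letters TGTGGT or their reverse complement, the core that RUNX factors recognise.
Kcnk2: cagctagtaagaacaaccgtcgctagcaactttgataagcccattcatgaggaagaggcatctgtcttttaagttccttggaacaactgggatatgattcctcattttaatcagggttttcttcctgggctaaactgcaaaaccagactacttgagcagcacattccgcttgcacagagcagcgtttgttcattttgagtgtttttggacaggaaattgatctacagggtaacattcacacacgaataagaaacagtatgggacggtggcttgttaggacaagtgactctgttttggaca
Kcnma1: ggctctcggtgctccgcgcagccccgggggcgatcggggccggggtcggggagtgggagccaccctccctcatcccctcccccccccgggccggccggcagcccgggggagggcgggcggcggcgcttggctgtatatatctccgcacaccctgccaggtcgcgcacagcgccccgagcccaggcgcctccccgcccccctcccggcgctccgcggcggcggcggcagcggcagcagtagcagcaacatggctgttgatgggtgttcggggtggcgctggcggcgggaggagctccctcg
Kcnn4: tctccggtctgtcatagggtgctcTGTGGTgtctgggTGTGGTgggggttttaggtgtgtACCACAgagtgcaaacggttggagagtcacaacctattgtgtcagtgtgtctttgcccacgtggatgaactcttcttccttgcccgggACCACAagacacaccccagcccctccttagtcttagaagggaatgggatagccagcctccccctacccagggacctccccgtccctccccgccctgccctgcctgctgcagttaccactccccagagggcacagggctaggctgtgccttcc
The Kcnma1 window was 78% G or C with 36 CpG dinucleotides, the Kcnk2 window 43% with 6, and the Kcnn4 window 59.7% with 6, against a median of 52.7% over all promoters. The RUNX core occurred 4 times in the Kcnn4 window and in neither of the others. On both strands it was found in 16.8% of all 32851 promoter windows and in 3 of the 54 windows of the 35 described genes that had one, those of Kcnn4, Kcnt2 and Kcnk7. The palindromic EBF motif was in 0.904% of all windows and the PU.1 letters GAGGAAGT in 3.20%, and neither was in a window of these genes. A match or its absence describes only the letters of these windows.

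The 98 genes together held 78875 UMIs, of which 458 belonged to the 52 genes that are not described. Tandem-pore leak channels held 25849 UMIs over 14 genes, of which Kcnk2 alone had 18579, and the noncoding transcripts held 21374 over 5 genes, nearly all of them Kcnq1ot1 with 21295. Accessory subunits held 9529 UMIs, inward rectifiers 9199, calcium- or sodium-activated channels 5266, voltage-gated pore subunits 2864, the KCNQ family 2339, the silent modifier subunits 1245 and the EAG and ERG family 1210. Without Kcnq1ot1, the summed level was 712 CPM in the chase library and 905 CPM in the pulse library for osteogenic CAR cells, against 274 and 320 CPM for adipogenic CAR cells. The lowest sums were in neutrophils, at 82.8 and 88.3 CPM.

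**Figure D1:**
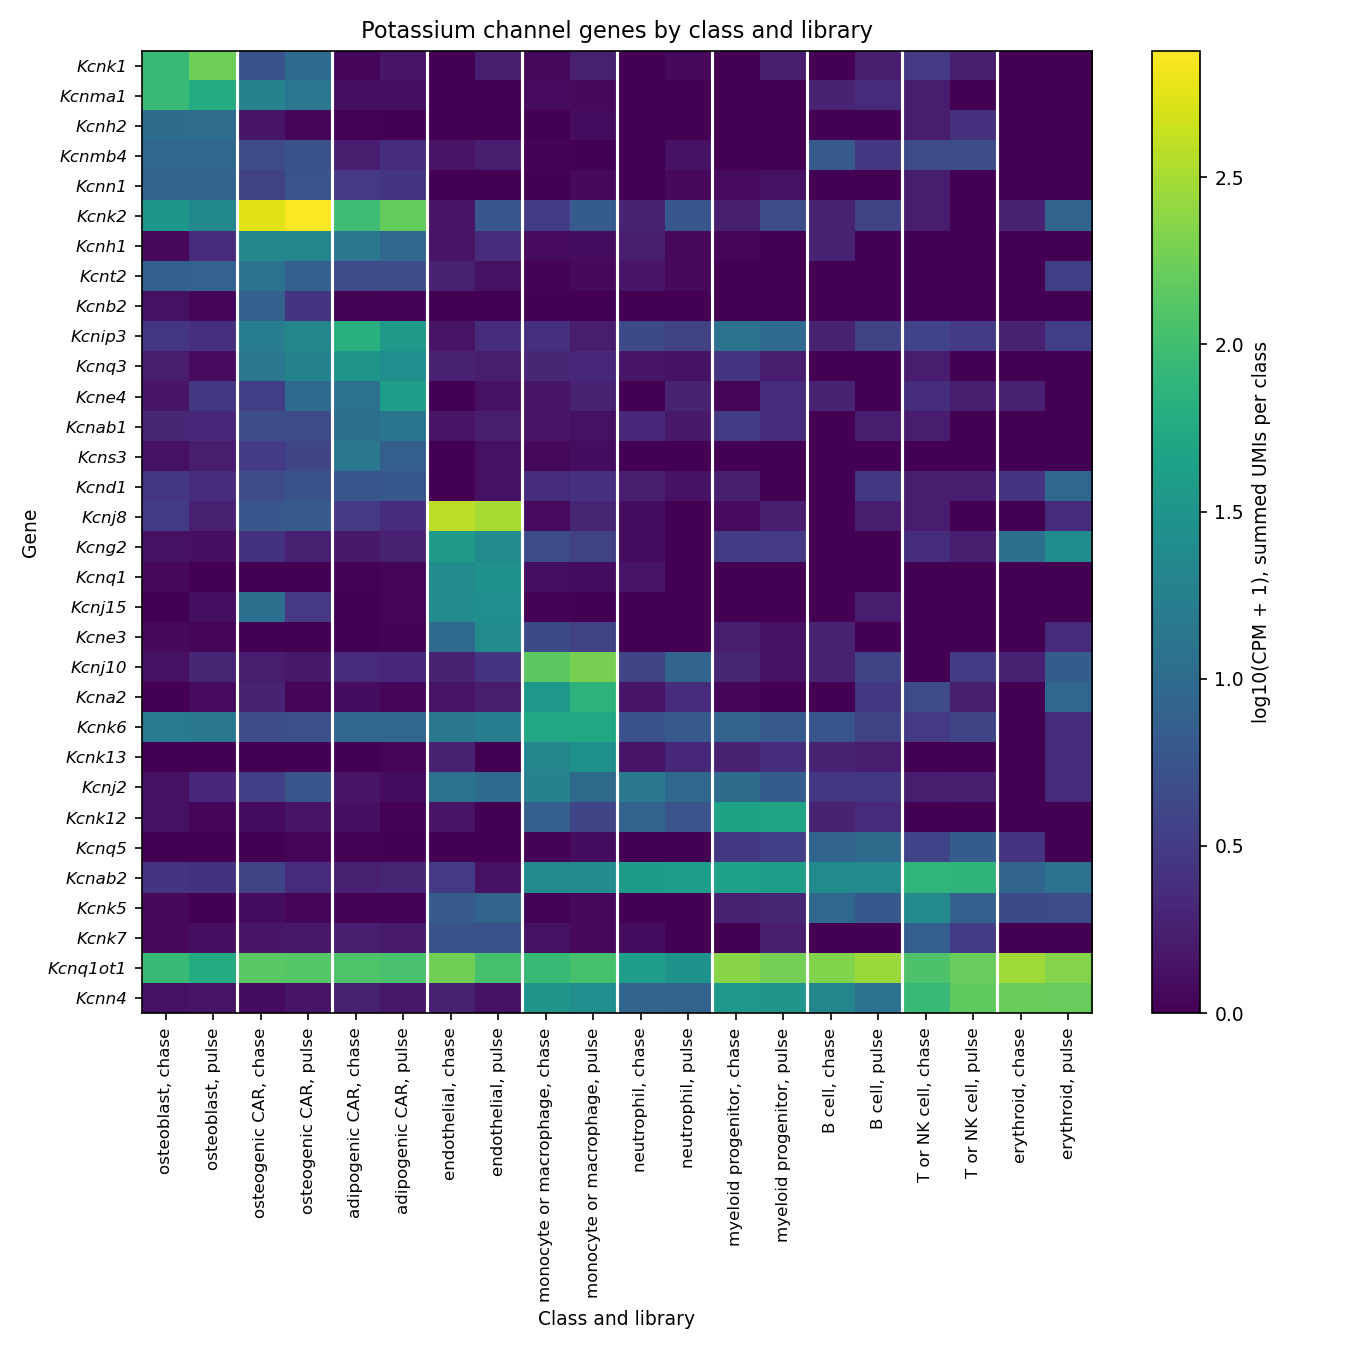
Level of genes with at least 5 CPM in some class, as log10(CPM + 1) of summed UMIs, with classes and libraries across and genes down. Kcnk2 is brightest in osteogenic CAR cells, Kcnk1 and Kcnma1 in osteoblasts, Kcnj8 in endothelial cells, Kcnj10 in monocytes or macrophages, and Kcnq1ot1 is seen in every class.

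Many genes of the set were concentrated in 1 class, and these classes covered bone, vessel and blood cells. Of 33 genes with enough UMIs, 14 had a level at least 3-fold over the next class in the same class of both libraries, against 12.5% of the 12464 genes so tested. The leading class was monocyte or macrophage for 5, osteoblast for 3, adipogenic CAR for 2, endothelial for 2, osteogenic CAR for 1 and myeloid progenitor for 1. Among the 1552 of all genes that were so concentrated, the same classes in that order led 222, 176, 126, 418, 36 and 30. The adipogenic CAR genes include Kcne2, called from 50 UMIs against 0 in the other classes, a limit given below. Genes enter these counts only with enough UMIs, which favours those that are high somewhere. The shares of 14 in 33 and 12.5% are therefore not a comparison of like lists.

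Kcnk2, a leak channel opened by membrane stretch and lipids (chr1:189207930-189402273, GENCODE vM21), led the stromal classes. Its level in osteogenic CAR cells was 558 CPM in the chase library and 754 CPM in the pulse library, against 95.7 and 158 CPM in adipogenic CAR cells. The osteogenic level was 5.83 times the adipogenic level in the chase library (95% interval 5.51 to 6.18) and 4.76 times in the pulse library (4.58 to 4.95). In osteoblasts it was lower again, at 31.4 and 20.8 CPM, which is 17.8-fold (15.3 to 20.7) and 36.3-fold (31.4 to 42.1) below osteogenic CAR cells. Osteogenic CAR cells were thus the highest of the 10 classes in both libraries, and classes outside the stroma had at most 7.17 CPM. Exons of Kcnk2, and of other described genes including Kcnma1, Kcnk1, Kcnj15, Kcnmb4, Kcnab1, Kcne3, Kcnt2 and Kcnj9, overlap a gene on the opposite strand; whether reads were counted by strand is not stated, so their levels are uncertain to that extent.

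The same order held when each cell was thinned to 2000 UMIs. A Kcnk2 UMI was found in 56.5% of 441 osteogenic CAR cells of the chase library (51.7% to 61.1%) and in 68.0% of 704 of the pulse library (64.5% to 71.5%). In adipogenic CAR cells the shares were 14.9% of 3477 and 22.7% of 3539. Among the 7 classes outside the stroma, the highest share was 0.374% of 1337 monocytes or macrophages in the chase library and 2.33% of 129 myeloid progenitors, or 3 cells, in the pulse library; T or NK cells had 0.313% of 319 and 0 of 384, which allows up to 0.956%. Without thinning, the shares were 83.0% and 89.9% of osteogenic CAR cells, at a median of 8145.5 and 9148 UMIs per cell, 2.07% of chase monocytes or macrophages at a median of 9695, and 3.10% of pulse myeloid progenitors at 21747. Thinning left out 25 and 45 shallower osteogenic CAR cells.

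**Figure D2:**
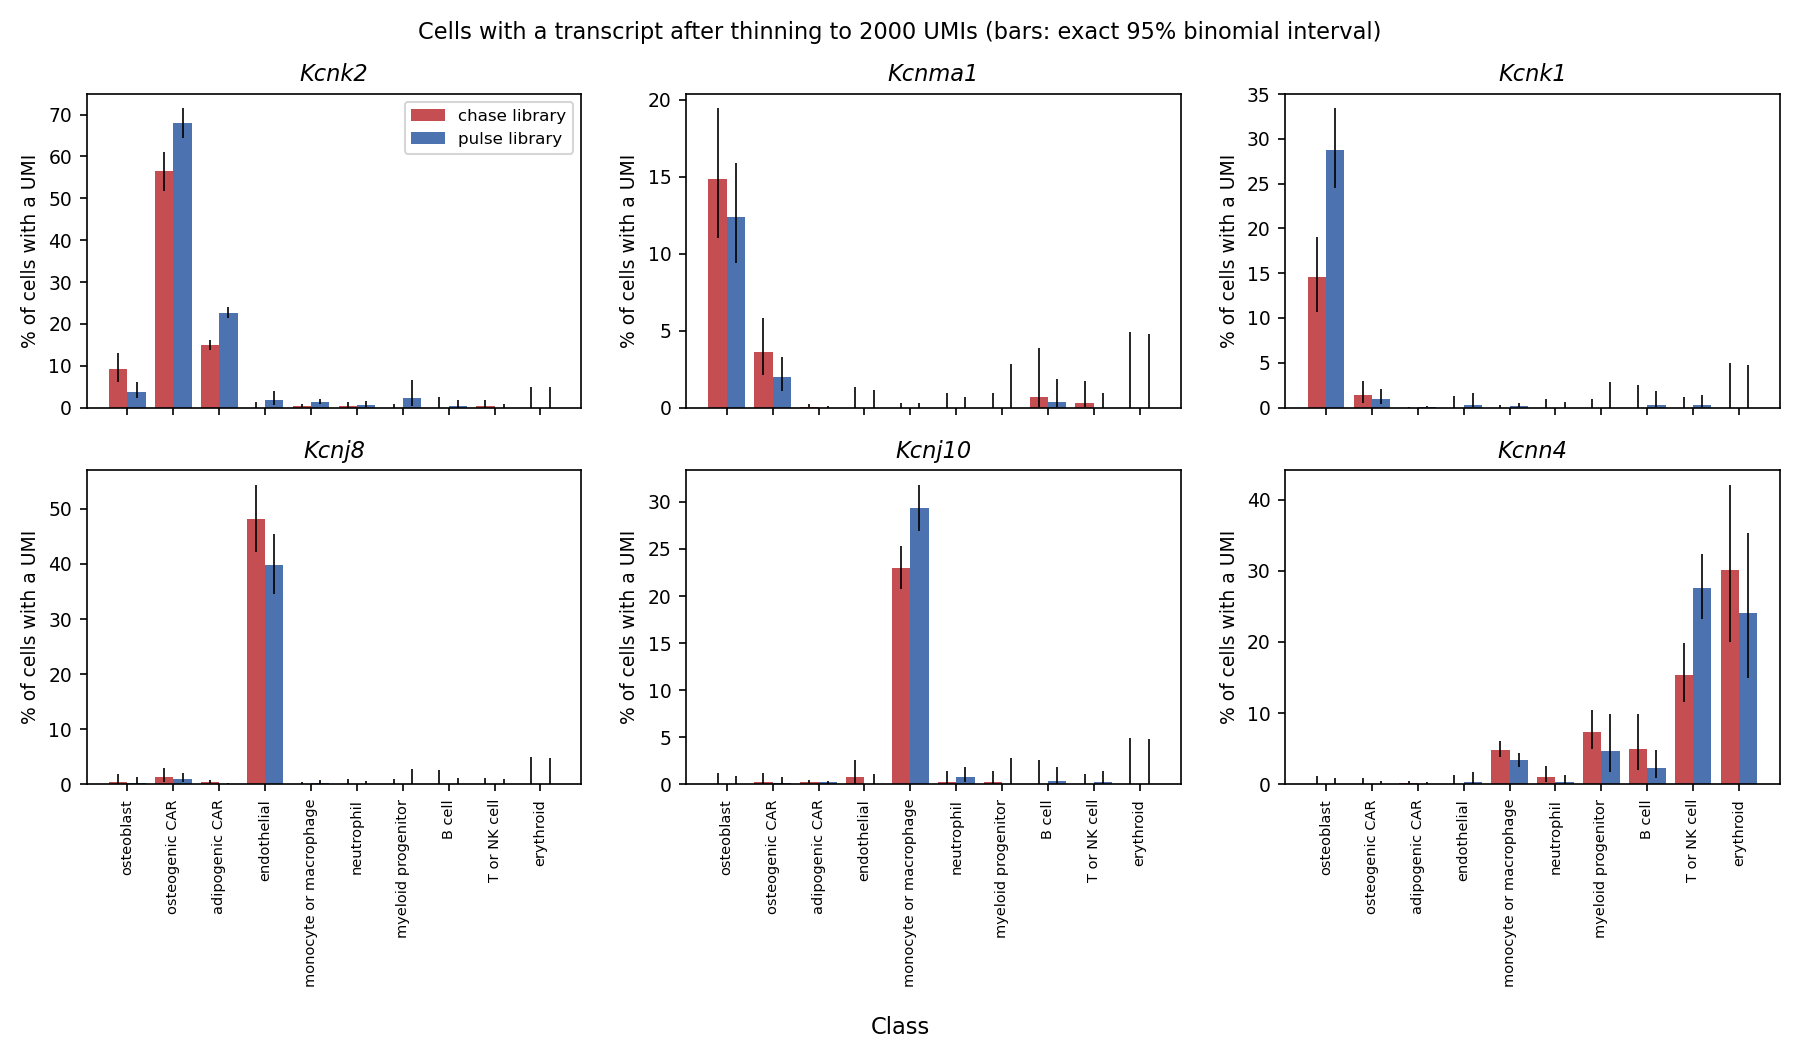
Percent of cells with at least 1 UMI of 6 genes after thinning each cell to 2000 UMIs, by class, with chase bars in red left of pulse bars in blue and exact 95% binomial intervals. Kcnk2 reaches 56.5% and 68.0% of osteogenic CAR cells, Kcnj8 48.2% and 39.9% of endothelial cells and Kcnj10 23.0% and 29.3% of monocytes or macrophages.

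Other tandem-pore channels had different leading classes. Kcnk1, a weakly conducting leak channel (chr8:125995170-126030685), stood at 86.3 CPM in chase osteoblasts and 176 CPM in pulse osteoblasts. That is 20.1-fold (12.6 to 34.2) and 19.0-fold (14.9 to 24.6) over osteogenic CAR cells, where it had 4.29 and 9.22 CPM. Adipogenic CAR cells had 0.119 and 0.488 CPM, and the counting intervals of the 3 stromal classes did not overlap in either library. Kcnk6, a leak channel that in mouse macrophages takes part in potassium efflux before inflammasome assembly, was highest in monocytes or macrophages with 50.3 and 52.3 CPM, against at most 15.7 CPM elsewhere. Kcnk13, a halothane-inhibited channel known from microglia, had 19.3 and 27.1 CPM in the same class and at most 1.37 CPM in any other. Its close relative Kcnk12 led instead in myeloid progenitors, at 46.2 and 46.9 CPM, with 6.64 and 3.01 CPM in monocytes or macrophages. Kcnk5, a channel opened by alkaline pH, had 22.5 CPM in chase T or NK cells and 6.74 CPM in pulse T or NK cells, from 32 and 9 UMIs, and 5.47 and 7.34 CPM in endothelial cells, which led in the pulse library.

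Inward rectifiers were mostly genes of endothelial cells and macrophages. Kcnj8, the pore of the vascular type of ATP-sensitive channel (chr6:142564837-142571614), had 380 CPM in chase endothelial cells and 319 CPM in pulse endothelial cells, and the next class, osteogenic CAR cells, had 5.01 and 5.56 CPM. After thinning, 48.2% of 274 chase endothelial cells and 39.9% of 331 pulse endothelial cells had a Kcnj8 UMI, against 0 of 394 and 0 of 545 neutrophils, which allows up to 0.932% and 0.675%, and against at most 1.36% and 0.994% in any other class, the osteogenic CAR cells; unthinned, the endothelial shares were 74.1% and 73.5% at a median of 6776 and 7062 UMIs, and the neutrophil shares 0.242% and 0% at 9253.5 and 7428. Its regulatory partner Abcc9, the sulfonylurea receptor and not itself in the set, was also highest there, with 805 and 883 CPM. Abcc9 also had 135 and 167 CPM in osteogenic CAR cells, where Kcnj8 had only the few CPM just given. Kcnj15, another inward rectifier, had 23.6 and 24.5 CPM in endothelial cells, and 10.3 and 2.03 CPM in osteogenic CAR cells. Outside the 10 classes, the 10 chase basophil or mast cells had 43.4 CPM of Kcnj10 from 6 UMIs, and the pulse ones 0 UMIs. Kcnj10, which buffers potassium in glia (chr1:172341210-172374085), had 139 and 191 CPM in monocytes or macrophages and at most 7.79 CPM in any other of the 10 classes. A Kcnj10 UMI was found in 23.0% of 1337 chase and 29.3% of 1396 pulse cells of that class after thinning, against 0 of 296 and 0 of 420 osteoblasts, which allows up to 1.24% and 0.874%, and against at most 0.730% and 0.734% in any other class; unthinned, the shares were 45.6% and 53.3% at a median of 9695 and 7227 UMIs, and 0.654% and 2.12% of osteoblasts at 19531 and 22454. Kcnj2, a strong inward rectifier, was spread over monocytes or macrophages with 257 and 103 UMIs (a chase level 2.03 times the pulse level of 8.87 CPM), neutrophils with 12.7 and 8.35 CPM and endothelial cells with 10.9 and 9.09 CPM. Kcnj9 and Kcnj16, both of which work in mixed channels with other inward rectifiers, were found at low levels in the macrophage class, with 3.15 and 4.82 CPM for Kcnj9 and 2.66 and 2.93 CPM for Kcnj16.

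Among the calcium- and sodium-activated channels, Kcnma1 and Kcnn4 divided the bone and blood classes of the 10 compared. Kcnma1, the pore of the large-conductance channel opened jointly by calcium and voltage (chr14:23289431-24014491), had 88.3 CPM in chase osteoblasts and 58.4 CPM in pulse osteoblasts. It had 17.6 and 12.6 CPM in osteogenic CAR cells and 0.278 and 0.325 CPM, or 7 and 10 UMIs, in adipogenic CAR cells. In osteoblasts thinned to 2000 UMIs, 14.9% of 296 chase cells and 12.4% of 420 pulse cells had a Kcnma1 UMI, against 0 of 274 and 0 of 331 endothelial cells, which allows up to 1.34% and 1.11%, and against at most 0.704% of 142 chase and 0.337% of 297 pulse B cells among the classes outside the stroma; unthinned, the osteoblast shares were 68.0% and 58.6% at a median of 19531 and 22454 UMIs, and the endothelial shares were 0% in both at 6776 and 7062. Its accessory subunit Kcnmb4, which slows gating of that pore, was highest of the 10 classes in osteoblasts as well, with 8.28 and 7.82 CPM. Plasma cells, outside the 10 classes, had more Kcnmb4, with 12.7 and 28.4 CPM from 14 and 6 UMIs. The small-conductance channel Kcnn1 had 7.77 and 7.18 CPM in osteoblasts. Kcnt2, opened by sodium, had 10.7 and 6.64 CPM in osteogenic CAR cells and 6.76 and 7.07 CPM in osteoblasts, and its relative Kcnt1 had 1.98 and 2.05 CPM in adipogenic CAR cells.

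Kcnn4 encodes the intermediate-conductance channel of red cells and activated lymphocytes (chr7:24370263-24386690). Erythroid cells had 166 and 161 CPM and T or NK cells 85.2 and 147 CPM. Outside the compared classes, osteoclasts had 111 and 138 CPM, from 64 and 92 UMIs. Plasma cells, also outside them, had 106 and 109 CPM, from 117 and 23 UMIs. Myeloid progenitors had 33.2 and 30.8 CPM, monocytes or macrophages 30.8 and 24.6 CPM and B cells 19.4 and 10.9 CPM, while stromal and endothelial classes had at most 0.841 CPM. After thinning, 30.1% of 73 chase erythroid cells and 24.0% of 75 pulse erythroid cells had a UMI, with intervals of 19.9% to 42.0% and 14.9% to 35.3%, against 0 of 441 and 0 of 704 osteogenic CAR cells, which allows up to 0.833% and 0.523%. Unthinned, the erythroid shares were 80.0% and 63.3% at a median of 9734 and 6128 UMIs, and the osteogenic CAR shares 0.215% and 0.401% at 8145.5 and 9148.

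Voltage-gated pores were few. Kcna2, a delayed rectifier of the Shaker family, was the most abundant, with 33.4 and 71.1 CPM in monocytes or macrophages and 8.37 CPM or less in the rest of the 10 classes. The 10 basophil or mast cells of the chase library had 36.1 CPM of it from 5 UMIs, and those of the pulse library 0 UMIs. Kcnd1, an A-type pore, had 3.58 and 4.20 CPM in osteogenic CAR cells and 4.96 and 5.24 CPM in adipogenic CAR cells. Erythroid cells had 1.70 and 8.37 CPM of Kcnd1, from 2 and 7 UMIs, and led in the pulse library. Kcnb2 was a small osteogenic CAR signal of 28 and 13 UMIs, or 6.68 and 1.76 CPM. Of the EAG and ERG family, Kcnh1 was highest in osteogenic CAR cells with 20.5 and 20.7 CPM, against 12.7 and 8.33 CPM in adipogenic CAR cells. Its relative Kcnh2, known for the cardiac repolarising current, was instead an osteoblast gene with 9.29 and 9.75 CPM. In osteogenic CAR cells Kcnh2 had 2 UMIs in the chase library and 1 UMI in the pulse library, so the osteoblast level was 19.5 times (5.14 to 165) and 71.9 times (12.6 to 2872) that level. In the KCNQ family, Kcnq3, a subunit of the neuronal M-current, was an adipogenic CAR gene with 30.4 and 24.9 CPM. Kcnq1, of the heart and epithelia, was found in endothelial cells with 23.6 and 27.3 CPM and at most 0.461 CPM in every other class. The silent subunit Kcng2, which modifies other pores, had 35.3 and 23.8 CPM in endothelial cells and 10.2 and 23.9 CPM in erythroid cells.

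Of the 9 described accessory subunits, Kcnip3, Kcne4, Kcnab1 and Kcne2 had their highest level in adipogenic CAR cells in both libraries, and the others led in osteoblasts, osteogenic CAR, endothelial or T or NK cells. Kcnip3, a calcium sensor that binds A-type pores and also acts as a transcriptional repressor, had 65.7 CPM in chase adipogenic CAR cells and 35.3 CPM in pulse adipogenic CAR cells. Kcne4, a single-span subunit that dampens several voltage-gated pores, had 11.1 and 39.3 CPM in the same class, and Kcnab1, a cytoplasmic beta subunit, 9.92 and 12.2 CPM. Kcne3, of the same family as Kcne4, was found in endothelial cells at 9.25 and 22.4 CPM. Kcnab2, the other main beta subunit, was a blood gene, with 75.3 and 72.6 CPM in T or NK cells, 43.7 and 40.4 CPM in myeloid progenitors and 36.2 and 38.9 CPM in neutrophils. It stayed at 2.86 CPM or less in the stromal and endothelial classes. Kcne2 was counted in adipogenic CAR cells alone among the 10 classes, with 39 and 11 UMIs, or 1.55 and 0.358 CPM. Its 0 UMIs do not show a lower level in the smaller classes, since 0 allows up to 3.42 and 2.37 CPM in B cells. The antisense transcript Kcnq1ot1, which silences imprinted neighbours on the paternal chromosome, was in every class, lowest in neutrophils at 40.3 and 28.0 CPM. It overlaps exons of Kcnq1, so reads of the pair can be told apart only by strand.

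The remaining described genes had few counts in these classes. Kcnq5, a KCNQ family pore, had 7.41 CPM in chase B cells and slightly more in pulse B cells, from 8 and 14 UMIs, and Kcnk10, a relative of Kcnk2, had 3.34 and 2.85 CPM in osteogenic CAR cells. Pulse B cells had more Kcnk10, at 4.50 CPM from 7 UMIs. Kcnc1, a fast delayed rectifier, reached 2.82 and 2.99 CPM in T or NK cells, and the beta subunit Kcnab3 2.03 and 0.857 CPM in osteoblasts. Pulse endothelial cells had more Kcnab3 than pulse osteoblasts, at 1.05 CPM from 3 UMIs. Kcnk3, an acid-sensitive leak channel, and the antisense transcript Kcnmb4os2 stayed at or under 2.78 CPM in all 10 classes.

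The osteogenic and adipogenic CAR classes differed in many of these genes, in both directions. In the chase library 15 genes had at least 50 UMIs over both classes, of which 4 were at least 2-fold higher and 7 at least 2-fold lower in osteogenic CAR cells, where all genes gave 5.86% and 8.27% of 11914. In the pulse library 7 of 19 were higher and 4 lower, where all genes gave 5.68% and 5.85% of 12209. Of the 15 genes with enough UMIs in both libraries, 3 were higher in both (Kcnk2, Kcnma1 and Kcnj8) and 4 were lower in both (Kcne4, Kcnt1, Kcnab1 and Kcns3). The median log2 ratio was -0.43 over the 15 genes and 0.01 over all genes in the chase library, and -0.06 over the 19 genes and 0.00 over all genes in the pulse library.

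Kcnma1 had the widest ratio among genes counted in both classes. Its osteogenic level was 63.6 times the adipogenic level in the chase library (29.4 to 164) and 38.8 times in the pulse library (20.2 to 83.5). Kcnk1 had 18 UMIs against 3 in the chase library, a ratio of 36.1 (10.5 to 191), and 68 against 15 in the pulse library, a ratio of 18.9 (10.7 to 35.6). That pulse ratio was 12.1 with each cell weighted equally and 9.88 without the osteogenic CAR cells of highest markers. Kcnj15 had 43 UMIs in osteogenic and 0 in adipogenic CAR cells of the chase library. With 3 counts in place of 0, Kcnj15 was 86.2-fold higher, a value that leaves out counting error. In the pulse library it had 15 UMIs against 3, a ratio of 20.8 (5.90 to 112). Kcnj2 was 5.47 times (2.08 to 14.2) and 18.2 times (8.31 to 45.5) the adipogenic level, from 10 and 35 osteogenic UMIs. Kcnmb4 was 5.30 times (2.47 to 11.3) and 3.08 times (1.87 to 5.01), and Kcnt2 was 2.91 times (1.99 to 4.20) and 1.78 times (1.24 to 2.50).

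Kcnj8 was 2.48 times (1.41 to 4.19) and 4.17 times (2.64 to 6.59) the adipogenic level, from 21 and 41 osteogenic UMIs. The chase value turned to 0.982 when cells with 5% or more mitochondrial UMIs were left out and to 0.886 when cells passing gates of several compartments were kept, and the pulse value was 1.45 in that second case. Endothelial markers summed to 14.1 and 12.6 CPM in osteogenic CAR cells and to 22.3 and 21.8 CPM in adipogenic CAR cells, with none of the 8 at 0 in either; their part in the result was not tested.

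Other genes had lower levels in osteogenic CAR cells. Kcnip3 had 15.7 and 19.4 CPM in osteogenic CAR cells, against 65.7 and 35.3 CPM in adipogenic CAR cells, a ratio of 0.240 (0.184 to 0.306) and 0.550 (0.459 to 0.655). Kcne4 had 2.39 and 9.08 CPM, against 11.1 and 39.3 CPM, a ratio of 0.215 (0.102 to 0.401) and 0.231 (0.178 to 0.296). Kcnab1 had 3.82 and 3.52 CPM, against 9.92 and 12.2 CPM. Kcns3, a silent modifier of delayed rectifiers, had 2.15 and 2.98 CPM, against 13.1 and 6.47 CPM, and its ratio was 0.164 (0.0745 to 0.316) and 0.461 (0.282 to 0.717). Kcnq3 had 13.1 and 18.4 CPM, against 30.4 and 24.9 CPM, so its ratio was 0.431 (0.322 to 0.567) and 0.740 (0.612 to 0.889). Kcnk6 had 3.82 and 4.07 CPM, against 7.82 and 7.90 CPM, and its chase ratio of 0.488 came to between 0.502 and 0.540 under 5 alternatives. Without the osteogenic CAR cells of highest markers, the chase ratio of Kcnq3 was 0.622 and the pulse ratio of Kcns3 0.565. Kcnt1 had 0 and 2 UMIs, against 50 and 63. With 3 counts in place of 0, its chase level was 2.77-fold lower, a value that leaves out counting error. Kcne2 had 0 UMIs in the osteogenic cells of both libraries. Put the same way, its chase level was 2.16-fold lower, from fewer than 50 UMIs over both classes. The pulse library had too few adipogenic UMIs for such a value. The counting interval excluded 1 in both libraries for genes including Kcnip3, Kcne4, Kcnab1, Kcns3 and Kcnq3. In CAR cells that passed only 1 CAR gate, a choice made after the data were seen, the Kcnq3 ratio was 0.0176 and 0.242 and the Kcnma1 ratio 127 and 179. In the same cells the chase ratio was 0.139 for Kcnip3 and 0.0391 for Kcns3, and the pulse ratio 0.113 for Kcne4, 8.00 for Kcnk2 and 3.36 for Kcnt2, the last past 2-fold.

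Osteogenic CAR cells had more mitochondrial RNA than adipogenic CAR cells, 53083 and 44610 CPM against 33406 and 32958 CPM, and were deeper, with a median of 8145.5 and 9148 UMIs against 6577 and 8071; the part of depth in these ratios was not tested. With cells of 5% or more mitochondrial UMIs left out, the Kcnk2 ratio was 4.60 in the chase library and 4.51 in the pulse library, and the chase ratios of Kcne4 and Kcnab1 were 0.0878 and 0.199.

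**Figure D3:**
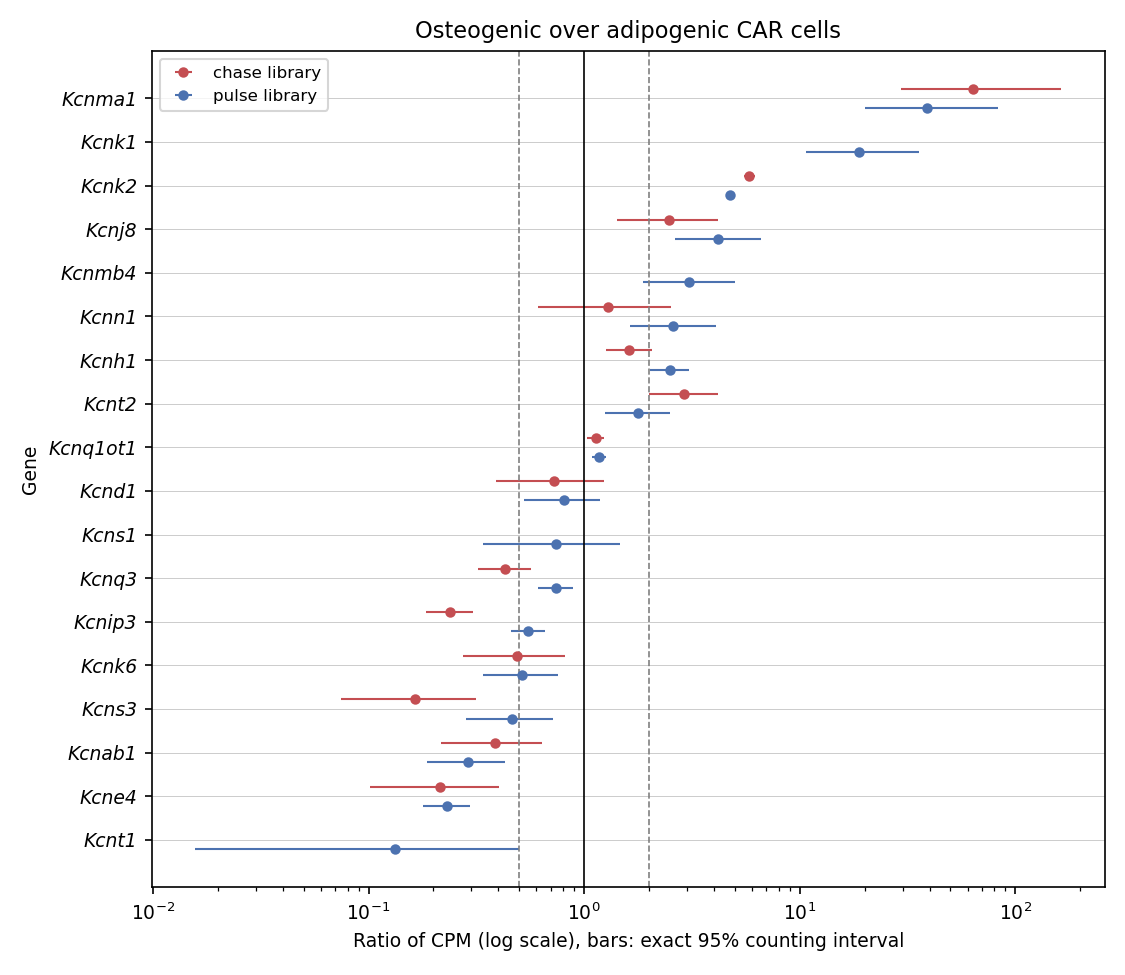
Ratio of the level in osteogenic over adipogenic CAR cells on a log axis, in the chase library (red) and the pulse library (blue), for genes with at least 50 UMIs over both classes and a UMI in each, with exact 95% counting intervals and dashed lines at 2-fold. Kcnma1 and Kcnk2 lie to the right and Kcne4, Kcnab1 and Kcns3 to the left in both libraries.

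To see whether Kcnk2 belongs to one end of the stromal cells or to their middle, the CAR cells were divided by which gates they passed, a division made after the data were seen. Of the adipogenic CAR cells, 2613 in the chase library and 2081 in the pulse library did not pass the osteogenic gate, and there Kcnk2 stood at 64.6 and 93.1 CPM. In adipogenic CAR cells that passed both gates it was 163 and 233 CPM, and in osteogenic CAR cells that passed both it was 745 and 775 CPM. Osteogenic CAR cells that did not pass the adipogenic gate had 741 and 1029 CPM. In the 115 and 94 osteogenic CAR cells with the highest osteogenic markers it was down to 163 and 220 CPM, ahead of 31.4 and 20.8 CPM in osteoblasts. Kcnk2 was therefore highest in the middle of this series in both libraries, with intervals that did not overlap those of either end.

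Kcnh1 had the same shape at lower levels, with 31.5 and 22.7 CPM in osteogenic CAR cells of both gates and 0.169 and 1.29 CPM in osteoblasts. Kcnip3 was highest at the adipogenic end, with 67.2 and 35.2 CPM where the osteogenic gate was not passed, and lowest in osteoblasts, with 11 and 14 UMIs. Kcnk1 was highest at the osteoblast end, with 9.72 and 28.7 CPM in the osteogenic CAR cells of highest markers. Kcnj15 appeared almost only in that group of highest markers, with 39 of its 43 osteogenic CAR UMIs in the chase library and 14 of 15 in the pulse library, at 29.2 and 10.3 CPM. It had 0 and 3 UMIs in osteoblasts. Kcnj15 thus sat between the CAR cells and the osteoblasts by these markers.

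**Figure D4:**
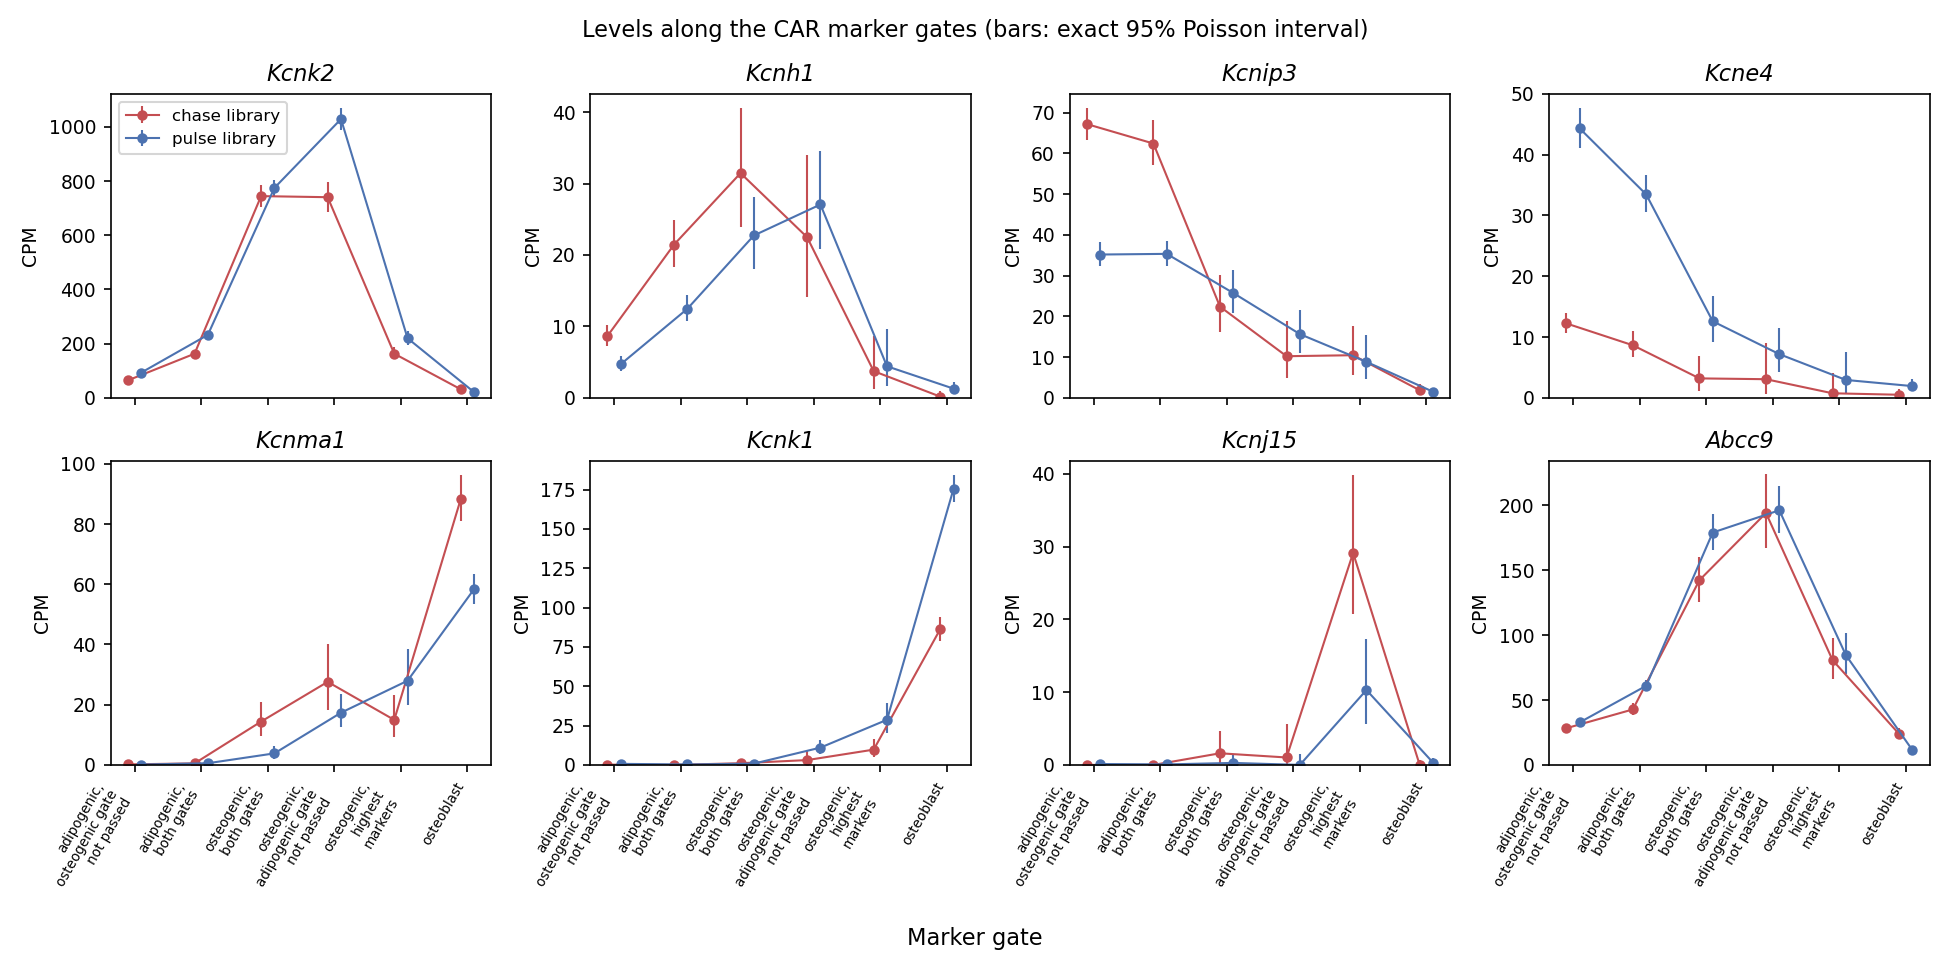
Level in CPM of 7 potassium channel genes and of Abcc9 along 6 marker gates, from adipogenic CAR cells that do not pass the osteogenic gate to osteoblasts, in the chase library (red) and the pulse library (blue), with exact 95% Poisson intervals. Kcnk2, Kcnh1 and Abcc9 peak in osteogenic CAR cells, Kcnip3 and Kcne4 at the adipogenic end, Kcnma1 and Kcnk1 in osteoblasts, and Kcnj15 in the osteogenic CAR cells of highest markers.

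Osteoblasts set against osteogenic CAR cells gave higher Kcnma1 (5.01 times, 3.92 to 6.48, in the chase library and 4.63 times, 3.71 to 5.84, in the pulse library), beside the Kcnk1 and Kcnh2 ratios already given. Kcnk6 was 3.67 and 3.27 times the osteogenic CAR level. Kcnip3 was 8.47-fold (4.44 to 17.8) and 12.9-fold (7.45 to 24.2) lower, Kcnq3 19.4-fold (7.17 to 73.8) and 86.0-fold (23.4 to 718) lower, and Kcnh1 121-fold and 16.1-fold lower, the first from 1 UMI with an interval of 21.2 to 4851. Osteoblasts were deeper, at a median of 19531 and 22454 UMIs, and the median log2 ratio of all genes was -0.86 and -0.96, and median-ratio size factors differed from the class totals by -0.75 and -0.87 on the log2 scale, so that scaling by them raises every ratio of this pair by that amount.

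Between chase and pulse, most channel genes differed by less than 2-fold within a class, and accessory and modifier subunits were among the exceptions. In adipogenic CAR cells 20 genes had at least 50 UMIs over both libraries, of which 2 were at least 2-fold higher and 3 at least 2-fold lower in the chase library, where all 12745 genes gave 2.63% and 1.97%. The median log2 ratio was -0.02 for the 20 genes and -0.02 for all genes. Kcne4 stood out by its counts, with 280 UMIs in the chase library and 1207 in the pulse library, or 11.1 against 39.3 CPM, a ratio of 0.283 (0.248 to 0.323). The other 2 lower genes were Kcns1, a silent modifier, with 5 against 56 UMIs and a ratio of 0.109 (0.034 to 0.27), and Kcnmb4, with 17 against 42 UMIs and a ratio of 0.494 (0.263 to 0.886). The 2 higher genes were Kcne2, a single-span subunit, with 39 against 11 UMIs and a ratio of 4.32 (2.17 to 9.36), and Kcns3, with 329 against 199 UMIs and a ratio of 2.02 (1.69 to 2.42). Kcns3 fell short of 2-fold under 5 alternatives, at 1.70 to 1.98, and Kcnmb4 under 2, at 0.505 and 0.515.

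Kcnip3 was close to the line, with 65.7 CPM in chase and 35.3 CPM in pulse adipogenic CAR cells, a ratio of 1.86 (1.72 to 2.01). Kcnh1 had 12.7 against 8.33 CPM, a ratio of 1.52 (1.29 to 1.80), and Kcnq3 30.4 against 24.9 CPM, a ratio of 1.22 (1.10 to 1.35). Kcnk2 had 95.7 against 158 CPM, a ratio of 0.604 (0.575 to 0.635). Kcnab1 was nearer to equal at 0.815 (0.692 to 0.959), as was Kcnq1ot1 at 1.11 (1.05 to 1.16). For Kcnj8, Kcnn1, Kcnd1 and Kcnab2 the interval included 1, with ratios between 0.854 and 1.52. Adipogenic CAR cells had a median of 6577 UMIs in the chase library and 8071 in the pulse library, 33406 and 32958 CPM of mitochondrial RNA, and an Adipoq level of 2052 and 1948 CPM.

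In osteogenic CAR cells 1 of 11 genes was higher and 2 were lower, where all 10516 genes gave 1.31% and 2.04%. The higher one was Kcnj15, with 43 against 15 UMIs, a ratio of 5.04 (2.75 to 9.77). The ratio was 3.13 with each cell weighted equally. The cells of highest osteogenic markers, which held most of these UMIs, made up 115 of 466 chase and 94 of 749 pulse osteogenic CAR cells; within them the levels were 29.2 and 10.3 CPM, and without them the ratio was 8.43, from 4 UMIs against 1. The lower ones were Kcne4 at 0.263 (0.120 to 0.513) and Kcnk1 at 0.466 (0.261 to 0.792), of which Kcnk1 came to 0.665 when each cell was weighted equally and to 0.574 with mitochondrial share under 5%. The Kcne4 ratio was 0.113 with mitochondrial share under 5% and 0.394 in CAR cells that passed only 1 CAR gate. Kcne4 was thus lower in the chase library in both CAR classes, and osteoblasts had 3 UMIs of it in the chase library and 18 in the pulse library. Kcnk2 had a ratio of 0.740 (0.705 to 0.777), Kcnh1 of 0.989 (0.750 to 1.30) and Kcnip3 of 0.812 (0.597 to 1.09), the intervals of the last pair including 1.

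In osteoblasts 0 of 10 genes were higher and 1 was lower by 2-fold, where all 9344 genes gave 1.73% and 1.42%. That gene was Kcnk1, with 511 UMIs in the chase library and 1638 in the pulse library, or 86.3 against 176 CPM, a ratio of 0.492 (0.444 to 0.543); with doublets kept, mixed cells kept or mitochondrial share under 5% it was 0.502, 0.512 and 0.518, within 2-fold. Kcnma1 was higher in the chase library, with 88.3 against 58.4 CPM and a ratio of 1.51 (1.34 to 1.71), and Kcnk2 had 31.4 against 20.8 CPM and a ratio of 1.51 (1.23 to 1.86). In endothelial cells 0 of 8 were higher and 1 was lower, Kcne3 at 0.414 (0.243 to 0.681), where all 8639 genes gave 1.18% and 0.648%; the Kcne3 ratio was 0.568, within 2-fold, with each cell weighted equally. Kcnj8 had a ratio of 1.19 (1.09 to 1.31) there. In monocytes or macrophages 2 of 14 were higher and 2 lower, where all 11050 genes gave 1.47% and 1.5%. The higher ones were Kcnj2 at 2.03 (1.61 to 2.57) and Kcnk12 at 2.20 (1.48 to 3.35), and the lower ones were Kcna2 at 0.470 (0.419 to 0.526) and Kcnk2 at 0.365 (0.231 to 0.565). With cells of 5% or more mitochondrial UMIs left out, Kcna2 came to 0.513 and Kcnk2 to 0.549. Kcnk2 had only 31 and 69 UMIs in that class, beside an Adipoq level of 28.4 and 26.3 CPM in the same cells, whose part in the ratio was not tested. Kcnk2 was also lower in the chase library in other classes outside the stroma, with 1 against 14 UMIs in endothelial cells, 4 against 27 in neutrophils, 7 against 11 in myeloid progenitors and 1 against 6 in erythroid cells. In T or NK cells Kcnn4 had 85.2 against 147 CPM, a ratio of 0.578 (0.457 to 0.728). In neutrophils, where 6 genes had enough UMIs, Kcnj10 had 13 against 42 UMIs, a ratio of 0.385 (0.189 to 0.731), at 3.00 against 7.79 CPM. The share of all genes past 2-fold was not counted for neutrophils. Kcnj10 stood at 139 and 191 CPM in monocytes or macrophages of the same libraries, whose part in the neutrophil ratio was not tested.

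**Figure D5:**
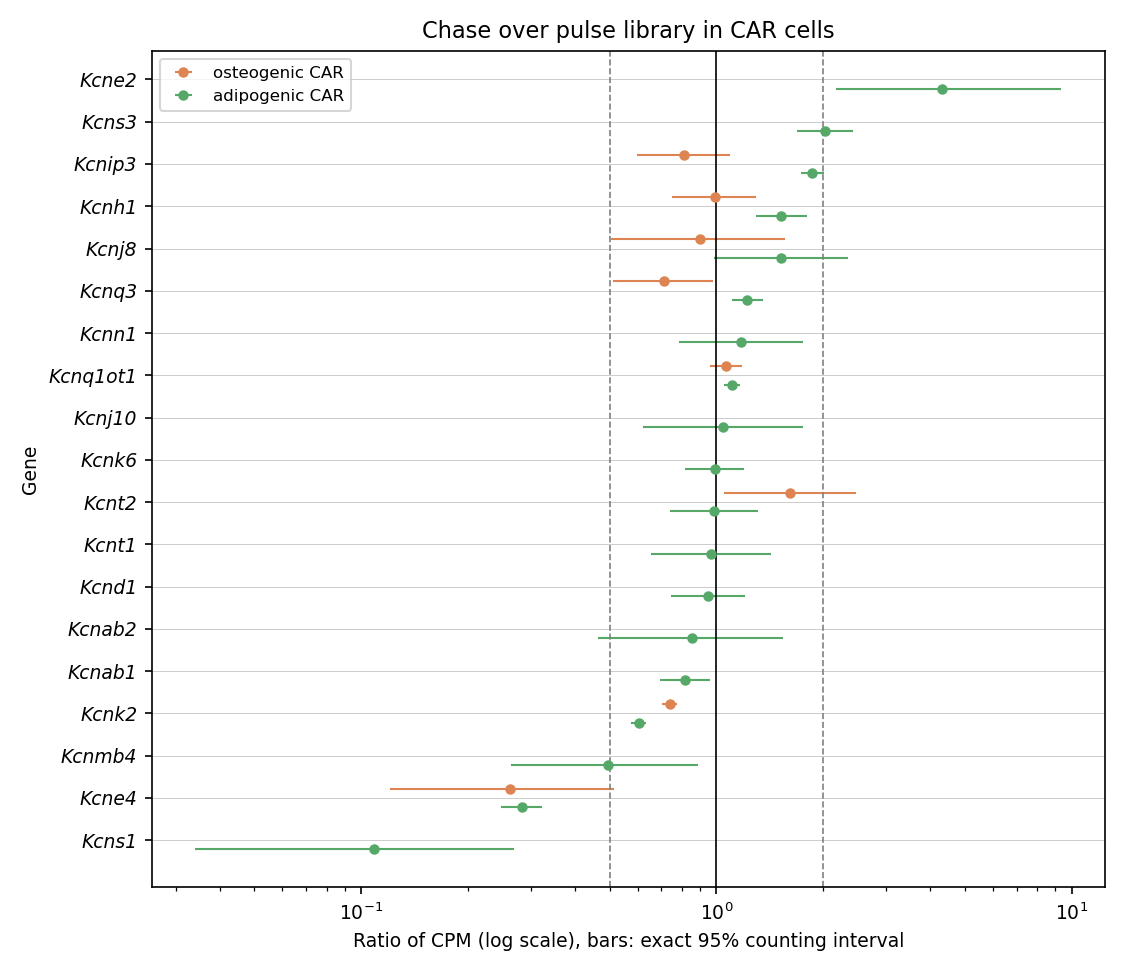
Ratio of the level in the chase over the pulse library on a log axis, in osteogenic CAR cells (orange) and adipogenic CAR cells (green). Genes drawn have 50 or more UMIs over both libraries in adipogenic CAR cells, with an osteogenic point where that class also has 50. Kcnj15, Kcnk1 and Kcnma1 reach 50 in osteogenic but not in adipogenic CAR cells and are not drawn. Bars are exact 95% counting intervals and dashed lines mark 2-fold. Most adipogenic points lie between the dashed lines, Kcne2 lies right of them and Kcns1 and Kcne4 left.

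Channel partners and potassium transporters, 32 genes listed beside the set, were described in the same way. In adipogenic CAR cells 3 of 19 were at least 2-fold higher in the chase library and 0 were lower, beside 2.63% and 1.97% of all genes. In osteogenic CAR cells 0 of 12 passed 2-fold in either direction, beside 1.31% higher and 2.04% lower of all genes. Between the CAR classes, the osteogenic level was at least 2-fold higher for 2 of 16 and lower for 3 of 16 in the chase library, beside 5.86% and 8.27% of all genes, and higher for 2 of 16 and lower for 1 of 16 in the pulse library, beside 5.68% and 5.85%. The higher genes were the same in both libraries, Abcc9 at 4.10 (3.68 to 4.57) and 3.64 (3.37 to 3.93) and Atp1b3, a beta subunit of the sodium-potassium pump, at 2.77 (2.51 to 3.05) and 2.56 (2.39 to 2.74). Of the potassium-chloride cotransporters, Slc12a4 had a ratio of 1.30 and 1.00 and Slc12a7 of 0.550 and 0.622, and the sodium-potassium-chloride cotransporter Slc12a2 had 0.574 and 0.596. Lrrc8a, the required subunit of the volume-regulated anion channel, had 36.7 and 40.3 CPM in osteogenic CAR cells, against 58.0 and 61.2 CPM in adipogenic CAR cells. Tmem38b, a potassium-permeable channel of the endoplasmic reticulum in which human mutations cause brittle bones, had 24.8 and 24.5 CPM, against 31.1 and 28.1 CPM, with an interval of 0.739 to 1.02 for the pulse ratio.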

How the data were processed

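The libraries are 10x single-cell RNA-seq, 1 chase and 1 pulse. The deposited values are raw UMI counts per gene and barcode, made by the authors with Cell Ranger 6.0.2 per the file headers; the submitters' processing notes name Cell Ranger 2.1.1 and the build mm10, and the annotation release is not stated. Gene positions are from GENCODE vM21. Barcodes were kept from 500 genes and 1000 UMIs upward if mitochondrial transcripts made up less than 10%, and doublets called by Scrublet in scanpy 1.11.5 (110 of the chase library, 1.30%, and 178 of the pulse library, 1.90%) were removed, leaving 8335 and 9212 cells. Python 3.11.15, numpy 2.4.6, scipy 1.17.1, pandas 2.3.3 and matplotlib 3.10.9 were used.

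A cell entered 1 of 20 classes when at least 3 markers were detected and their sum per 10000 UMIs passed a threshold set on the marker distributions; 541 and 560 cells passing gates of several compartments were left out, and 125 and 188 passed none. Counts were summed per class and library and scaled to CPM. With 1 library per group no test was run: ratios carry exact conditional binomial intervals, levels Poisson and shares Clopper-Pearson intervals, all 95% and for counting error only, and 3 counts stand in for 0. A comparison used genes with at least 50 UMIs over both groups and called 2-fold; a gene led a class at 3-fold over the next. For shares, cells were thinned to 2000 UMIs. Calculations were tested on simulated data. Named genes are those with at least 20 CPM in a class, the 8 highest and 8 lowest ratios between the CAR classes and between the libraries in adipogenic CAR cells, the 3 leading genes of each class, and partner genes with at least 20 CPM in CAR cells. The genes and lists were chosen with earlier results of these data known. Some genes that this rule names are not reported here.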

Additional observations from a re-analysis of the deposited data

Results flagged for a closer look

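Several signals lay in classes too small for the comparisons. Kcnk1 had 500 CPM in the 6 osteocyte-like cells of the pulse library, from 33 UMIs (344 to 702), against 176 CPM in osteoblasts. Kcne4 had 135 CPM in the 20 pericyte or smooth muscle cells of the chase library, from 24 UMIs (86.6 to 201), against 11.1 CPM in adipogenic CAR cells. Kcnk3, an acid-sensitive leak channel, had 169 CPM in the same cells, from 30 UMIs (114 to 241), against 0.280 CPM in monocytes or macrophages. Kcnmb4os2 had 29 CPM in the 55 plasma cells of the chase library, from 32 UMIs (19.8 to 40.9), against 2.78 CPM in B cells.

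The chase over pulse ratio of Kcnk2 lay on opposite sides of 1 in different classes, at 1.51 in osteoblasts, 0.604 in adipogenic CAR cells and 0.74 in osteogenic CAR cells. With 1 library per group the difference between classes was not tested. In classes outside the stroma with few Kcnk2 UMIs the ratio was below 1 as well, at 0.365 in monocytes or macrophages, 0.0859 in endothelial cells, 0.184 in neutrophils, 0.200 in myeloid progenitors and 0.119 in erythroid cells.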

How the results depend on the processing

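No paired analysis was possible because each group has 1 library. The counts of potassium channel genes past 2-fold are small, and 54 recounts moved by over 1.5 times while 131 did not. Chase over pulse, adipogenic CAR cells had 2 higher and 3 lower genes. The higher count was 1 with mitochondrial share under 5%, gate thresholds doubled, mixed cells kept, totals without mitochondrial, ribosomal protein and haemoglobin genes, cells weighted equally or at least 200 UMIs. In CAR cells passing only 1 CAR gate it was 0 higher and 1 lower, at 1.5-fold 5 higher, at 200 UMIs 1 lower, and with no minimum 16 higher and 18 lower. Osteogenic CAR cells (1 higher, 2 lower) gave 0 lower with mitochondrial share under 5%, 1 lower with cells weighted equally, without the cells of highest osteogenic markers or with 1 CAR gate (then 0 higher), 2 higher at 1.5-fold, 4 higher at 20 UMIs, 0 and 0 at 200, and 16 and 15 with no minimum. Osteoblasts (0 higher, 1 lower) gave 0 lower with doublets kept, mitochondrial share under 5% or mixed cells kept (then 1 higher), 2 higher at 1.5-fold, 2 and 3 at 20 UMIs, and 13 and 21 with no minimum. Endothelial cells (0 higher, 1 lower) gave 2 lower with thresholds doubled or mixed cells kept, 0 lower with cells weighted equally or at 200 UMIs, 1 higher at 1.5-fold, and 8 and 12 with no minimum. Monocytes or macrophages (2 higher, 2 lower) gave 1 and 0 with mitochondrial share under 5%, 1 lower with cells weighted equally, 1 and 1 at 200 UMIs, and 10 and 11 with no minimum. Osteogenic over adipogenic CAR, the chase library (4 higher, 7 lower) gave 2 higher with mitochondrial share under 5%, 12 at 20 UMIs and 1 at 200, and 27 and 20 with no minimum; the pulse library (7 higher, 4 lower) gave 2 higher at 200 UMIs, and 30 and 24 with no minimum. Kcnj8 alone turned its direction, with a chase ratio of 0.982 with mitochondrial share under 5% and 0.886 with mixed cells kept. Kcnk2 between the CAR classes ranged from 4.60 to 7.77 in the chase library and from 4.51 to 8.00 in the pulse library, and Kcne4 chase over pulse in adipogenic CAR cells from 0.276 to 0.289. The cause of these shifts was not tested, except that lower minimums and folds admit more genes. Leaving out the cells of highest markers, the barcodes found in both libraries, or cells of both CAR gates, and 5-fold over the next class, were chosen after seeing the data.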
